A study of Homo sapiens with 4 samples.

Results

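Hemidesmosomes are the junctions that fix an epithelial cell to its basement membrane. Integrin α6β4 spans the membrane there and binds laminin-332 on the outside, while plakin proteins tie its cytoplasmic tail to keratin filaments on the inside. In the lung, laminin-332 lies in the epithelial basement membrane, and integrin α6β4 is found on airway and some alveolar epithelial cells. The genes described here are *ITGB4* and *ITGA6* (the integrin chains), *PLEC* and *DST* (the plakins plectin and dystonin), *CD151* (a tetraspanin that binds laminin-binding integrins), *COL17A1* (the transmembrane collagen XVII), and *LAMA3* and *LAMB3* (the α3 and β3 chains of laminin-332). They were taken by gene symbol from the deposited table, and they are 8 of its 30843 genes.

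RNA was sequenced from A549 cells, an established line of human lung adenocarcinoma epithelium with the genotype label WT, in 2D culture. The RM+ group (respiratory motion, 2 samples) was kept in a sealed chamber whose air pressure a pressure unit lowered and released in turn, and the RM- group (2 samples) was kept without the pressure unit. Both groups were harvested on day 4 with trypsin, and replicate 1 and replicate 2 of each group carry the batch labels 1 and 2. The question put to these genes is whether RM changed their RNA in cells grown on a well plate. Whether these cells form hemidesmosomes was not measured. The labels do not say whether the 2 samples of a group are separate cultures. The p-values therefore cover the spread among these 4 samples, and that spread may be technical. In bulk RNA, fewer cells that carry a transcript and less of it per cell cannot be told apart.

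The values are normalized counts, each gene's read count divided by a size factor for the library, and are given here to 4 significant digits or fewer. The RM+ libraries held 18754356 and 19009997 reads over genes, and the RM- libraries 19228867 and 20412283. Fold changes are RM+ over RM- on the log2(normalized count + 1) scale, tested across all 17632 genes that reached 10 normalized counts in 2 or more samples. A gene was called at an adjusted p under 0.05 (limma-trend, two-sided, Benjamini-Hochberg over all genes tested). Epithelial character, rather than the identity of the line, was read from epithelial markers. Of these, *KRT8*, *KRT18*, *KRT7* and *CDH1* were abundant in all 4 samples. *EPCAM* was low, with 47.76 and 45.44 normalized counts in RM+ and 45.4 and 67.87 in RM-. *VIM* (vimentin), which is not one of these markers, was abundant too, with 16060 and 16590 in RM+ and 17130 and 16650 in RM-. The 6 epithelial markers summed to 117600 and 116800 in RM+ and to 119700 and 108600 in RM-, and limma called none of them (1 at an unadjusted p under 0.05, 0 by edgeR, 0 by DESeq2). The basal cell keratin *KRT5* was at 0 and 1.01 normalized counts in RM+ and at 1.009 and 0 in RM-.

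*ITGB4* fell in the RM+ group, and its partner *ITGA6* differed by less than the spread between samples. *PLEC*, *LAMA3* and *LAMB3* stood higher in both RM+ samples than in both RM- samples, but none of the 3 passed the main test. *DST* and *CD151* overlapped between the groups, and *COL17A1* was close to absent. Of the 7 genes that passed the filter on low values, 0 were called higher, 1 was called lower and 6 were not called, where over all genes tested 1.46% were called higher and 0.794% lower (2.26% in either direction). At an unadjusted p under 0.05, limma had 2 of the 7 higher and 1 lower, where 7.68% of all genes were higher and 6.8% lower by that rule, which is the background for the unadjusted counts of the other lists too. By adjusted p, edgeR called 0 of the 7 higher and 1 lower (1.27% and 0.72% of all genes), and DESeq2 called 1 higher and 1 lower (1.3% and 0.726% of all genes). With the batch as a replicate block, 2 were called higher and 1 lower, where 5.1% and 4.63% of all genes were called (9.74% in either direction). The shares for edgeR, DESeq2 and the block are the background for the other lists too. The fold changes of 5 of the 7 were above 0 and those of 2 below 0. Of all 17632 genes tested, 8700 were above 0. The median of the 7 was 0.11 on the log2 scale, beside -0.00286 over all genes tested. That median moved with single samples. It was 0.07 without RM+ replicate 1, 0.19 without RM+ replicate 2, 0.0047 without RM- replicate 1 and 0.28 without RM- replicate 2. Groups did not overlap for 4 of the 7 genes, 3 with RM+ above and 1 with RM+ below, beside 44.4% of all genes tested (22.2% above and 22.2% below).

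**Figure D1:**
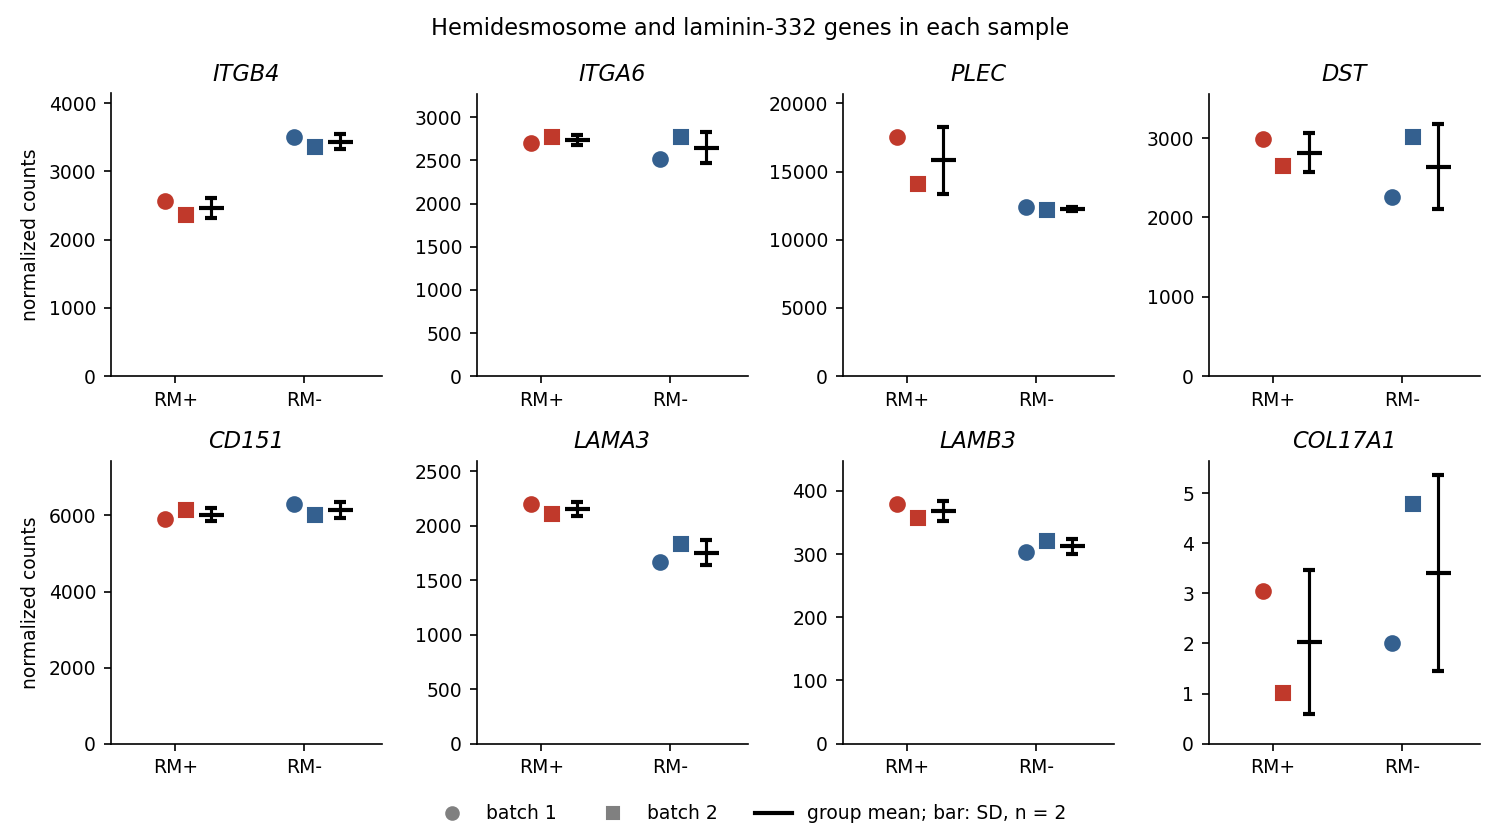
Normalized counts of the 8 genes in each sample, 1 panel a gene, each axis from 0, with RM+ (red) left of RM- (blue), circles for batch 1, squares for batch 2, and black bars for the group mean ± SD (n = 2). Only in the *ITGB4* panel do both RM+ samples lie below both RM- samples, and in the *PLEC*, *LAMA3* and *LAMB3* panels both lie above.

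*ITGB4* encodes integrin β4, whose long cytoplasmic tail is the docking site for plectin. The gene (ENSG00000132470) lies on chromosome 17, from 75721328 to 75757818 on the plus strand of GRCh38. It had 2564 and 2359 normalized counts in the RM+ samples, against 3509 and 3353 in the RM- samples. The groups did not overlap, and the gap between them was several times the spread within either. The means were 2461 ± 144.9 in RM+ and 3431 ± 110.4 in RM- (SD, n = 2 each), so that RM+ was 1.39-fold lower. The log2 fold change was -0.48 (SE 0.0847, limma adjusted p = 0.0053), and *ITGB4* stood 96th of the 17632 genes by p. It was -0.45 within batch 1 and -0.51 within batch 2. Of the 10289 genes averaging 200 normalized counts or more, 2.16% had a larger absolute log2 fold change than *ITGB4*. Over all 17632 genes tested, that share was 10.2%. The adjusted p of *ITGB4* was under 0.05 in 14 of 15 alternative fits, from 2.21e-10 to 0.0288, and it was 0.386 in the fit with no filter on low values, where no gene passed.

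*ITGA6* encodes integrin α6, the chain that pairs with β4 in hemidesmosomes and with β1 elsewhere. The gene (ENSG00000091409) lies on chromosome 2, from 172427354 to 172506459 on the plus strand. It had 2697 and 2775 normalized counts in RM+ and 2518 and 2775 in RM-, so the upper value was the same in both groups. The means were 2736 ± 55.09 in RM+ and 2647 ± 181.8 in RM- (SD, n = 2 each), a log2 fold change of 0.05 (SE 0.0854, limma adjusted p = 0.86). Within batch 1 it was 0.10, and within batch 2 it was -0.00026.

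The ratio of the integrin chains did not overlap between the groups. The log2 ratio of *ITGB4* to *ITGA6* normalized counts was -0.07 and -0.23 in the RM+ samples, against 0.48 and 0.27 in the RM- samples. It was below 0 in both RM+ samples and above 0 in both RM- samples, and the difference of -0.53 was close in batch 1 (-0.55) and batch 2 (-0.51). An exact two-sided permutation test gave p = 0.333, the smallest p that 2 samples against 2 allow, so that test cannot reach 0.05 here and says nothing on the size of the gap. The log2 ratio of *PLEC* to *ITGB4* was 2.78 and 2.58 in RM+ against 1.82 and 1.86 in RM- (difference 0.84, exact permutation p = 0.333, again the smallest possible). *ITGB4* is the numerator of the first ratio and the denominator of the second. Both ratios restate the log2 fold changes of their genes (-0.48 for *ITGB4*, 0.05 for *ITGA6* and 0.36 for *PLEC*) and are not separate results.

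*PLEC* encodes plectin, the large plakin that links the β4 tail to keratin filaments and that also acts at other junctions and on actin. The gene (ENSG00000178209) lies on chromosome 8, from 143915153 to 143976734 on the minus strand. It had 17560 and 14080 normalized counts in RM+, against 12370 and 12150 in RM-. Both RM+ samples lay above both RM- samples, but RM+ replicate 1 stood far above RM+ replicate 2. The means were 15820 ± 2457 in RM+ and 12260 ± 150.1 in RM- (SD, n = 2 each), and the log2 fold change was 0.36 (SE 0.105, limma adjusted p = 0.0944). It was 0.51 within batch 1 and 0.21 within batch 2. *PLEC* passed with the replicate block (limma adjusted p = 1.62e-06), which has 1 residual degree of freedom and pools its spread over all genes, and with DESeq2 (log2 fold change 0.37, adjusted p = 0.0124), but not with edgeR (adjusted p = 0.102). Its size rests on RM+ replicate 1, since the log2 fold change was 0.20 without that sample (limma adjusted p = 0.595) and 0.52 without RM+ replicate 2 (limma adjusted p = 0.0156).

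*DST* encodes dystonin, whose epithelial isoform BPAG1e is the second plakin of the hemidesmosome, and whose other isoforms serve nerve and muscle. The gene (ENSG00000151914) lies on chromosome 6, from 56457987 to 56954830 on the minus strand. It had 2991 and 2645 normalized counts in RM+ and 2263 and 3019 in RM-. One RM- sample lay below both RM+ samples and the other above them. Its log2 fold change was 0.11 (SE 0.113, limma adjusted p = 0.742), and it was 0.40 within batch 1 and -0.19 within batch 2. The batches differed in opposite senses, with batch 2 minus batch 1 at -0.18 in RM+ and 0.42 in RM-. The log2 ratio of *DST* to *PLEC* was -2.55 and -2.41 in RM+ and -2.45 and -2.01 in RM- (difference -0.25, exact permutation p = 0.667).

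*CD151*, the tetraspanin partner of laminin-binding integrins, showed the smallest change of the 7. The gene (ENSG00000177697) lies on chromosome 11, from 832887 to 839831 on the plus strand. It had 5900 and 6148 normalized counts in RM+ and 6297 and 6003 in RM-, with the groups interleaved. The means were 6024 ± 175.0 in RM+ and 6150 ± 207.7 in RM- (SD, n = 2 each), and the log2 fold change was -0.03 (SE 0.084, limma adjusted p = 0.928). Within batch 1 it was -0.09 and within batch 2 it was 0.03.

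*COL17A1* encodes collagen XVII, the transmembrane collagen found in the hemidesmosomes of skin and other stratified epithelia. The gene (ENSG00000065618) lies on chromosome 10, from 104031286 to 104085880 on the minus strand. It had 3 and 1 reads in RM+ and 2 and 5 reads in RM-, which are 3.048 and 1.01 normalized counts in RM+ and 2.018 and 4.78 in RM-. It did not pass the filter and was not tested, and at this depth a difference was not detectable.

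**Figure D2:**
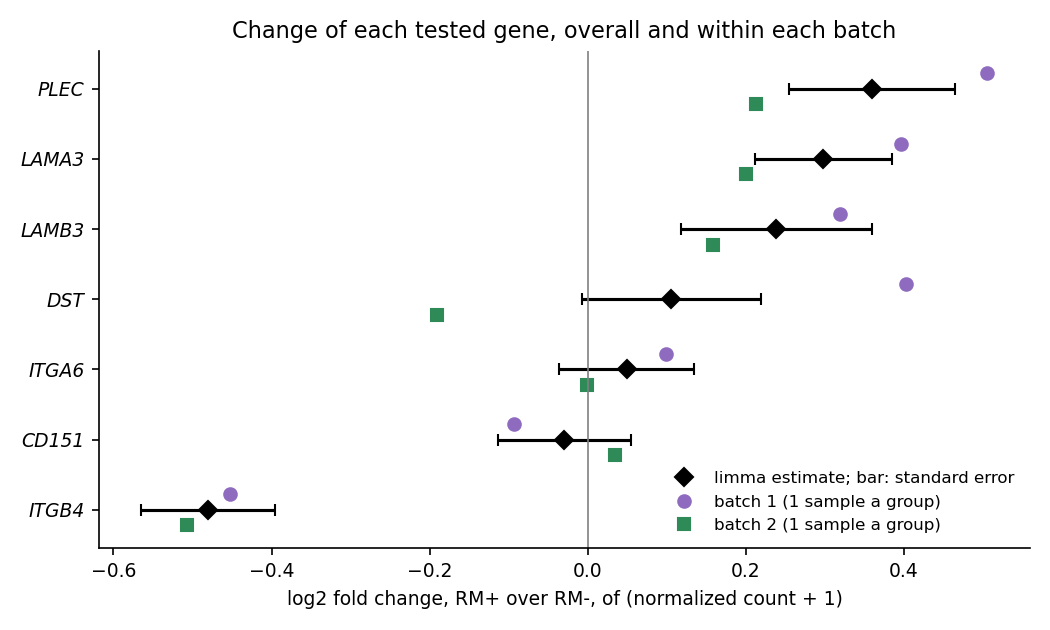
Log2 fold change of normalized count + 1, RM+ over RM-, for the 7 tested genes (rows), with the limma estimate and its standard error in black, batch 1 as purple circles and batch 2 as green squares. *ITGB4* lies left of 0 with both batches close together, *PLEC*, *LAMA3* and *LAMB3* lie right of 0 with batch 1 farther out than batch 2, and the batches of *DST* lie on either side of 0.

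*LAMA3* and *LAMB3* encode the chains of laminin-332 that were measured here. The laminin is a heterotrimer, secreted by epithelial cells, and integrin α6β4 binds it through the end of the α3 chain. The promoter windows printed here, from RefSeq on GRCh38.p14, hold 250 bases before and 50 after a start site, and are printed because both genes stood higher in both RM+ samples. Capitals mark matches to the AP-1 motif TGANTCA and to the SP/KLF motif GGGCGG, each on either strand, and none of these matches overlapped. The tables held windows for 5 of the 8 genes, and none for *ITGB4*, *PLEC* or *CD151*. *LAMB3* has 3 windows, of which 2 are printed.

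LAMA3, chr18:23872770-23873069, plus strand: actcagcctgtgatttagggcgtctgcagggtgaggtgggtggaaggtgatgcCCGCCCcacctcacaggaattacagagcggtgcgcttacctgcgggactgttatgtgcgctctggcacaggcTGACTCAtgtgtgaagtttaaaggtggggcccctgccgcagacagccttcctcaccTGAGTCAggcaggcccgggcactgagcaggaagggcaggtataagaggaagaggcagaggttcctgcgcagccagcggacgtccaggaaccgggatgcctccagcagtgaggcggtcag
LAMB3, chr1:209652376-209652675, minus strand: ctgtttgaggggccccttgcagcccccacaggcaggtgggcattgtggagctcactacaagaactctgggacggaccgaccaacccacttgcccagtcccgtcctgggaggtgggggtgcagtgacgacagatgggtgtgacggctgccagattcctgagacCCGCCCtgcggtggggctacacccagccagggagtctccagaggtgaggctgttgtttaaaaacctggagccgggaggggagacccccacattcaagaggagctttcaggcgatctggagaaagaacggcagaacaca
LAMB3, chr1:209651325-209651624, minus strand: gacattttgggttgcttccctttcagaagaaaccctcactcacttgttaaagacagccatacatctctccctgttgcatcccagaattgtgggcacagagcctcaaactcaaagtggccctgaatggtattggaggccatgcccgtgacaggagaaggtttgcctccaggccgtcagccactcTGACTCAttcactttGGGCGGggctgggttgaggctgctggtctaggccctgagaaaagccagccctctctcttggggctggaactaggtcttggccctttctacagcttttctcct

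The *LAMA3* window belongs to a start site at 23873020, which lies 183567 bases inside the gene as the table draws it. It holds 2 AP-1 matches, whose first bases lie at -125 and -69 from the start site, and 1 SP/KLF match at -197. The first *LAMB3* window starts at the gene's outer end and holds 1 SP/KLF match at -88. The second printed *LAMB3* window, at a start site 1051 bases further in, holds 1 AP-1 match at -67 and 1 SP/KLF match at -52. The *LAMB3* window that is not printed overlaps the first, with a start site 96 bases further in, and holds 1 SP/KLF match at -184 and no AP-1 match. Of all 35116 RefSeq windows of this length, 7.71% hold the AP-1 motif and 45.0% the SP/KLF motif. The TEAD motif GGAATG, held by 14.0% of windows, had no match in the printed windows. The outermost *DST* window held 1 AP-1 match at 25, 1 TEAD match at -249 and 4 SP/KLF matches. The part of any match in the RNA values of these genes was not tested. The other *DST* windows and the *COL17A1* window held no match to any of these motifs. The *ITGA6* windows, which overlap, held 1 and 3 SP/KLF matches and no AP-1 or TEAD match. A match is a string of letters and not a measured binding site.

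*LAMA3* (ENSG00000053747, chromosome 18, from 23689453 to 23956222 on the plus strand) had 2197 and 2107 normalized counts in RM+, against 1669 and 1834 in RM-. Both RM+ samples lay above both RM- samples. The means were 2152 ± 63.34 in RM+ and 1752 ± 117.3 in RM- (SD, n = 2 each), with a log2 fold change of 0.30 (SE 0.087, limma adjusted p = 0.0931). It was 0.40 within batch 1 and 0.20 within batch 2. *LAMA3* passed with the replicate block (limma adjusted p = 0.000883) and without RM- replicate 2 (log2 fold change 0.37, limma adjusted p = 0.0433), and in the other 13 of 15 alternatives it did not.

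*LAMB3* (ENSG00000196878, chromosome 1, from 209614870 to 209652425 on the minus strand) had 379.0 and 357.4 normalized counts in RM+, against 303.7 and 320.2 in RM-. Again both RM+ samples lay above both RM- samples, by a smaller margin. The means were 368.2 ± 15.26 in RM+ and 312.0 ± 11.73 in RM- (SD, n = 2 each), with a log2 fold change of 0.24 (SE 0.121, limma adjusted p = 0.388). It was 0.32 within batch 1 and 0.16 within batch 2, and it passed in none of the 15 alternatives, from 0.205 with the replicate block to 0.714 as adjusted p. The log2 ratio of *LAMA3* to *LAMB3* was 2.53 and 2.56 in RM+ and 2.45 and 2.51 in RM-, a difference of 0.06 (exact permutation p = 0.333, the smallest possible).

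**Figure D3:**
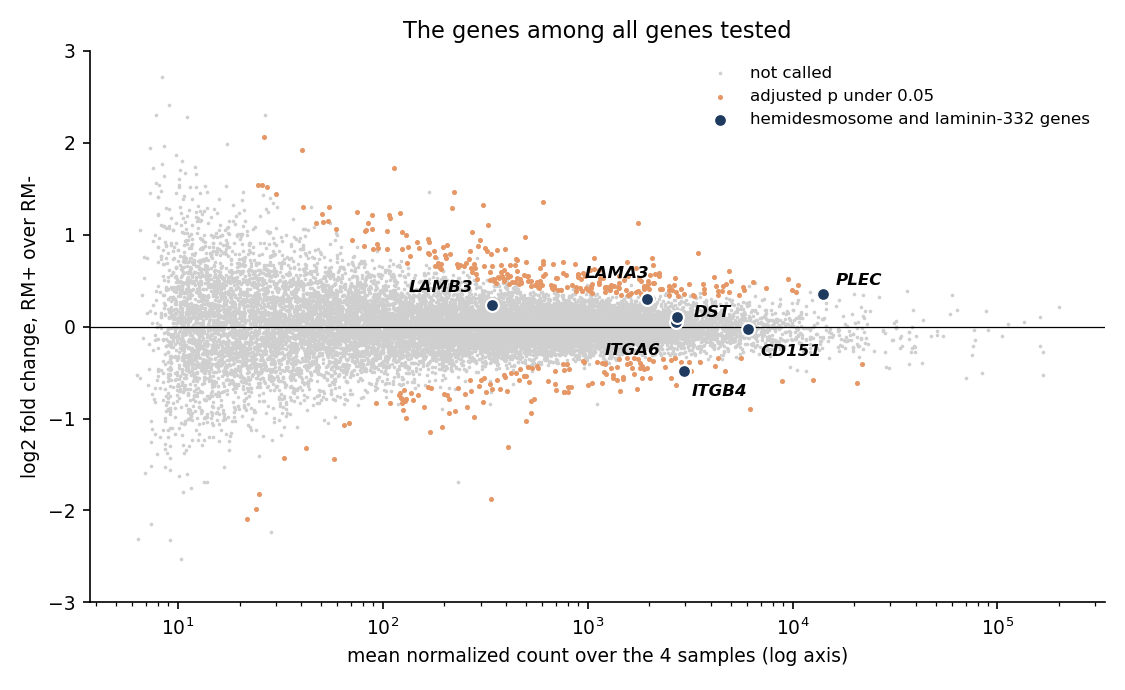
Log2 fold change of normalized count + 1, RM+ over RM-, against mean normalized count over the 4 samples (log axis) for the genes tested (1 gene beyond -3 to 3 is not drawn), with called genes in orange, others in grey and the 7 tested genes of the junction in dark blue. *ITGB4* lies at the lower edge of the cloud among called genes, and *PLEC* and *LAMA3* lie above 0 among genes not called. Of the 10289 genes averaging 200 normalized counts or more, 5.35% had a larger absolute log2 fold change than *PLEC*, 8.95% than *LAMA3* and 15.4% than *LAMB3*. Over all genes tested, these shares were 16.7%, 22% and 29.5%.

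The expression of these genes differed widely when set per length, as normalized counts per kilobase of the union of exons (GENCODE 29). Tested genes had a median of 82.62 per kilobase. *CD151* was the highest, with 1498 and 1561 per kilobase in RM+ and 1599 and 1524 in RM-, a mean above that of 97.3% of tested genes. *PLEC* came next, with 1033 and 828.9 per kilobase in RM+ and 727.8 and 715.3 in RM-, above 94.2% of tested genes. *ITGB4* had 379.2 and 348.9 per kilobase in RM+ and 519.0 and 495.9 in RM-. *ITGA6* had 412.8 and 424.7 per kilobase in RM+ and 385.4 and 424.8 in RM-. The order of the integrin chains per kilobase thus turned with the group, *ITGA6* above *ITGB4* in both RM+ samples and *ITGB4* above *ITGA6* in both RM- samples. That order comes from the same counts as their ratio and is not a separate result.

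The laminin chains and *DST* were lower. *LAMA3* had 149.7 and 143.6 per kilobase in RM+ and 113.7 and 125.0 in RM-, above the *LAMB3* values of 80.85 and 76.24 in RM+ and 64.77 and 68.31 in RM-. *DST* had 70.65 and 62.48 per kilobase in RM+ and 53.44 and 71.3 in RM-, and it overlapped *LAMB3*. With the length of the longest transcript instead, *DST* (121.7 per kilobase on average) stood above *LAMB3* (79.0 per kilobase) and the other ranks were kept. *COL17A1*, at 0.384 per kilobase on average, was far below the rest. The counts pool all isoforms of a gene, and the annotation lists 35 transcripts for *DST*, 15 for *PLEC* and 15 for *LAMA3*, so which isoform the reads came from cannot be told apart.

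**Figure D4:**
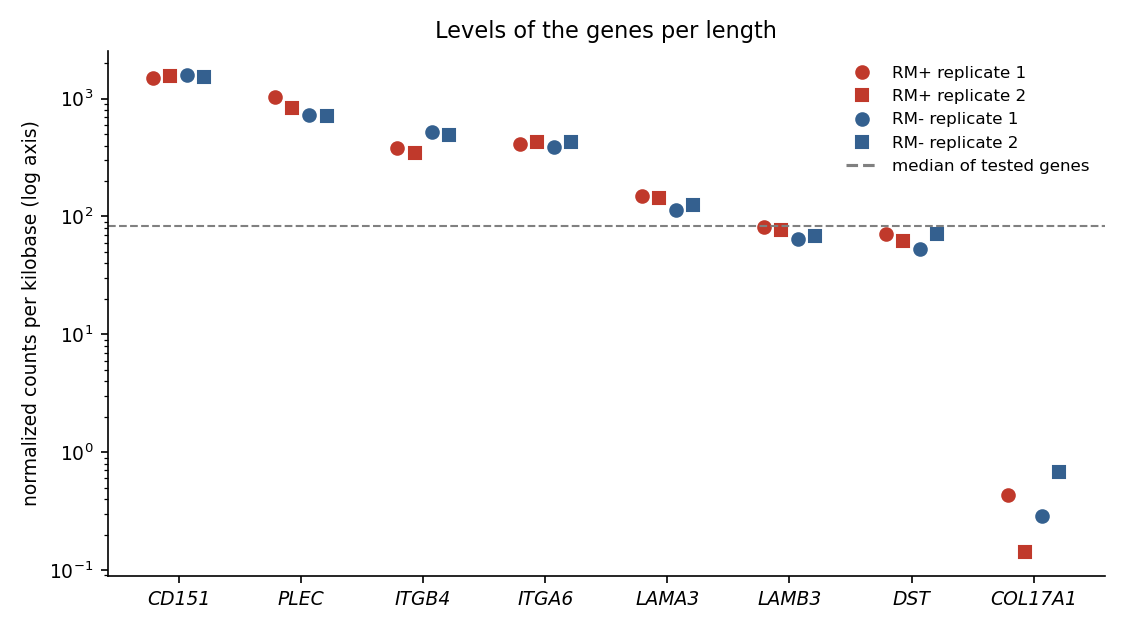
Normalized counts per kilobase of exon union (log axis) of the 8 genes in each sample, RM+ in red left of RM- in blue, circles for replicate 1 and squares for replicate 2, with the median of tested genes as a dashed line at 82.62. *CD151* and *PLEC* lie highest, *LAMB3* and *DST* lie near the median, and *COL17A1* lies far below it.

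Several genes share their stretch of the genome with a gene on the opposite strand, and the sources used here do not give the strand setting of the counting. *ITGB4* overlaps *GALK1*, which encodes galactokinase, whose mean was 659.6 normalized counts and which did not pass (log2 fold change -0.02, limma adjusted p = 0.958). *CD151* overlaps *POLR2L*, a subunit of RNA polymerase II, whose mean was 4287 normalized counts and which did not pass either (log2 fold change -0.11, limma adjusted p = 0.66), so part of the *CD151* count may belong to it if strand was not used. *ITGA6* overlaps 3 long noncoding RNAs, with means of 146.9, 81.49 and 48.6 normalized counts. Words of 31 bases were compared between the longest transcripts of genes, in the sense direction only. By that check, *PLEC* alone of the 8 genes shared words with another gene, the plakin relative *EPPK1* (149 words, 0.984% of its own). *EPPK1* had 0 and 2.019 normalized counts in RM+ and 3.026 and 0.956 in RM-. Other isoforms and opposite-strand overlaps were not covered by the check.

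The genes whose 4 samples followed *ITGB4* most closely were sought among 10288 genes averaging 200 normalized counts or more, by the largest gap between log2 deviations from each gene's own mean over the 4 samples. They were *ETV4*, an ETS-family transcription factor (gap 0.0332, log2 fold change -0.44), *EIF4A2*, an RNA helicase of translation initiation (gap 0.0448, log2 fold change -0.48), and *SLC9A3R2*, a PDZ scaffold protein (gap 0.0479, log2 fold change -0.45). All 3 were also called lower in RM+ by limma, with adjusted p of 0.0138, 0.00738 and 0.00941, which their choice by likeness to a called gene made likely.

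Other laminin receptors were the context nearest to *ITGB4*. Of 9 tested genes, 1 was called lower and 0 higher, with a median log2 fold change of -0.01 (limma at an unadjusted p under 0.05 had 2 higher and 1 lower, and edgeR and DESeq2 each called 0 higher and 1 lower). The called gene was *BCAM*, the Lutheran glycoprotein, a receptor for laminins with an α5 chain. It had 1077 and 1096 normalized counts in RM+, against 1689 and 1453 in RM-. RM+ lay below RM- in both batches, with a log2 fold change of -0.53 (SE 0.0944, limma adjusted p = 0.00582), and the gene passed in 14 of 15 alternatives, all but the fit with no filter on low values (adjusted p = 0.392).

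*ITGB1*, the β1 chain with which α6 can also pair, had 30000 and 34030 normalized counts in RM+ and 31250 and 33150 in RM- (log2 fold change -0.01, limma adjusted p = 0.981). *RPSA*, the ribosomal protein also known as the laminin receptor, had 18580 and 19820 normalized counts in RM+ and 20350 and 20250 in RM- (log2 fold change -0.08, limma adjusted p = 0.77), and its processed pseudogenes make its count uncertain. With the replicate block 2 of the 9 were called higher, *SDC1* (adjusted p = 0.00112) and *DAG1* (adjusted p = 0.00265). *SDC1*, a heparan sulphate proteoglycan, had 6121 and 6431 normalized counts in RM+ and 5465 and 4994 in RM-, and *DAG1*, the dystroglycan gene, had 5370 and 5653 in RM+ and 4693 and 4577 in RM-. These 2 were named after their values were seen.

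The basement membrane genes, which encode the other laminin chains, type IV and VII collagens, nidogens and heparan sulphate proteoglycans, had 17 of 19 members tested. None was called by limma or edgeR, 3 were higher and 0 lower at an unadjusted p under 0.05 (7.68% and 6.8% of all genes), and DESeq2 called 1 higher. Their median log2 fold change was 0.10, and 14 of the 17 were above 0. Of all 17632 genes tested, 8700 were above 0. The 2 most abundant by normalized count were *LAMA5*, with 15120 and 12570 in RM+ and 13750 and 11940 in RM- (log2 fold change 0.11, limma adjusted p = 0.719), and *LAMB1*, with 8922 and 8839 in RM+ and 7955 and 9009 in RM- (log2 fold change 0.07, limma adjusted p = 0.798). With the replicate block 3 were called higher and 0 lower, beside 5.1% and 4.63% of all genes. These 3 are named after their values were seen. *HSPG2*, which encodes perlecan, had 3954 and 3490 normalized counts in RM+ and 2980 and 3031 in RM- (log2 fold change 0.31, limma adjusted p = 0.0853, and 0.000172 with the block). It was also the gene that DESeq2 called (adjusted p = 0.0378). *COL4A2*, a type IV collagen chain, had 2060 and 1953 in RM+ and 1692 and 1621 in RM- (log2 fold change 0.28, adjusted p = 0.118, and 0.00295 with the block). *NID2*, which encodes nidogen-2, had 154.4 and 135.3 in RM+ and 99.87 and 95.6 in RM- (log2 fold change 0.56, adjusted p = 0.141, and 0.0277 with the block).

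**Figure D5:**
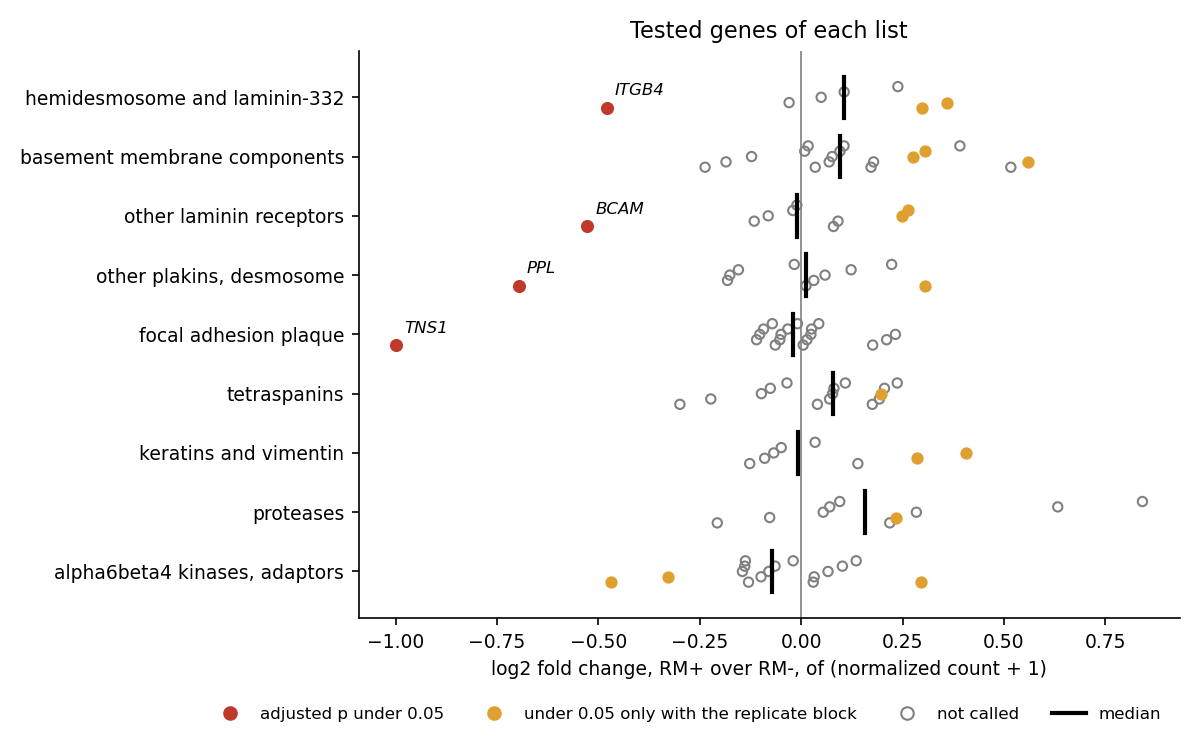
Log2 fold change of normalized count + 1, RM+ over RM-, of each tested gene (points) in the hemidesmosome genes and 8 other lists (rows). Medians are black bars, genes called in the main fit are red, and others are open. Orange marks genes called with the replicate block but not in the main fit, whatever the other fits gave. The 4 red genes, *ITGB4*, *BCAM*, *PPL* and *TNS1*, all lie left of 0, and the list medians lie between -0.07 and 0.16.

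Among the other plakins and the desmosome genes, 11 of 14 were tested, 1 was called lower and 0 higher, and the median log2 fold change was 0.01 (2 higher and 1 lower at an unadjusted p under 0.05 in limma, and 0 higher and 1 lower by edgeR and by DESeq2). The called gene was *PPL*, which encodes periplakin, a plakin of the cornified envelope and of keratin filaments. It had 214.4 and 196.9 normalized counts in RM+, against 298.6 and 372.8 in RM-, with a log2 fold change of -0.70 (SE 0.143, limma adjusted p = 0.0151). It did not pass without RM- replicate 2, where the log2 fold change was -0.54 (limma adjusted p = 0.102). The 2 most abundant were *JUP* (plakoglobin), with 5423 and 4948 normalized counts in RM+ and 6023 and 5522 in RM- (limma adjusted p = 0.453), and *DSP* (desmoplakin), with 5009 and 4518 in RM+ and 4126 and 5396 in RM- (limma adjusted p = 0.979). *DSC3*, a desmosomal cadherin named after its values were seen, was called higher only with the replicate block (adjusted p = 0.0341).

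Focal adhesion plaque genes, which serve the other main junction with the matrix, had all 18 tested, with 1 called lower, 0 higher and a median log2 fold change of -0.02 (2 higher and 1 lower at an unadjusted p under 0.05, and 0 in either direction by edgeR or DESeq2). The called gene was *TNS1*, which encodes the adhesion protein tensin 1. It had 107.7 and 64.62 normalized counts in RM+, against 133.2 and 211.3 in RM-, with a log2 fold change of -0.999 (SE 0.246, limma adjusted p = 0.0421) that was -0.30 within batch 1 and -1.69 within batch 2. It passed in 6 of 15 alternatives, and not without RM+ replicate 2 (log2 fold change -0.63, limma adjusted p = 0.137) or without RM- replicate 2 (-0.67, limma adjusted p = 0.207). The actin cross-linkers *ACTN4* (23290 and 23260 normalized counts in RM+, 23120 and 22610 in RM-) and *ACTN1* (10200 and 10010 in RM+, 9763 and 9852 in RM-) were the most abundant, with limma adjusted p of 0.949 and 0.887.

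Keratins and vimentin, the filaments to which plakins attach, had 8 of 13 genes tested, none called by limma, edgeR or DESeq2 (2 higher and 0 lower at an unadjusted p under 0.05), and a median log2 fold change of -0.01. *KRT8* had 61510 and 61630 normalized counts in RM+ and 59420 and 52560 in RM- (limma adjusted p = 0.663), and its filament partner *KRT18* had 32370 and 31350 in RM+ and 35990 and 33620 in RM- (limma adjusted p = 0.648). Both have processed pseudogenes, so their counts are uncertain. With the replicate block *KRT19* and *KRT80*, also named after their values were seen, were called higher. *KRT19*, an epithelial keratin, had 791.5 and 889.5 normalized counts in RM+ and 680.0 and 589.8 in RM- (log2 fold change 0.41, limma adjusted p = 0.0574, and 0.000206 with the block).

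The remaining 3 lists held no called gene by limma, edgeR or DESeq2. Of the tetraspanins, the family of *CD151*, 15 of 16 were tested, with 2 higher and 0 lower at an unadjusted p under 0.05 and a median log2 fold change of 0.08. The 2 most abundant were *CD63*, with 7862 and 8807 normalized counts in RM+ and 6961 and 7799 in RM- (limma adjusted p = 0.412), and *TSPAN14*, with 5684 and 5777 in RM+ and 5991 and 6090 in RM- (limma adjusted p = 0.749). Of the 10 proteases that act on laminin-332 or collagen XVII or activate others that do, 3 were higher and 0 lower at an unadjusted p under 0.05, with a median of 0.16, and the most abundant were the sheddases *ADAM9* and *ADAM10* (limma adjusted p = 0.722 and 0.853). Of the 16 kinases and adaptors of integrin α6β4 signalling, 1 was higher and 2 lower at an unadjusted p under 0.05, with a median of -0.07, and the most abundant were the phosphatase *PTPN11* and the receptor kinase *MET* (limma adjusted p = 0.654 and 0.683). With the replicate block 1 tetraspanin and 1 protease were called higher (*CD9* and *PLAU*), and of the kinases and adaptors 1 higher (*LYN*) and 2 lower (*ERBB3* and *PRKCD*), all 5 named after their values were seen.

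Markers of other cell types were low, and their part in the *ITGB4* result was not tested. The fibroblast markers summed to 157.4 and 132.2 normalized counts in RM+ and 152.3 and 135.7 in RM-, nearly all of it *COL1A1*, with *DCN* at 0 in 3 of 4 samples. The endothelial markers summed to 22.35 and 10.1 in RM+ and 3.026 and 9.56 in RM-, and the immune markers to 4.064 and 10.1 in RM+ and 6.053 and 11.47 in RM-. The basal cell and keratinocyte markers summed to 31.5 and 20.2 in RM+ and 31.28 and 25.81 in RM-, of which *TP63* gave 16.26 and 16.16 in RM+ and 21.19 and 21.99 in RM- (log2 fold change -0.39, limma adjusted p = 0.722).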

How the data were processed

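A549 RNA in 2D culture was measured in 2 RM+ and 2 RM- samples, grouped by the treatment label. The submitters' processing notes name HISAT2 2.1.0 and GRCh38, featureCounts 1.6.3 and DESeq2 1.24.0, beside FastQC 0.11.7 and Trimmomatic 0.38. The sources used here do not give the annotation release or the strand setting. The authors deposited a signal for every sample: gene counts over that library's DESeq2 size factor. The deposited log2 fold change, score columns (mean, standard error and test statistic) and p-value columns are the authors' own comparison and were not used. Taking a column's smallest nonzero value as 1 read, 100% of values were whole reads within 1e-06.

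The members, the 8 other lists, the marker lists and the rules were chosen with earlier results of these data known. The genes named are the members, up to 4 called genes and the 2 most abundant of each other list, and the 3 genes most like the member with the smallest p. Genes of the other lists called with the replicate block but not in the main test were named after their values were seen. Marker and overlapping genes are named as checks. The main test was limma 3.58.1 (R 4.3.3) on log2(normalized count + 1), with 2 residual degrees of freedom and 14.8 borrowed from other genes. It was also run on simulated counts with the same extra spread for every gene and no batch effect. Those settings are simpler than these data, so that run cannot show how well the test does here. Alternatives were other pseudocounts, filters and scalings, edgeR 4.0.16, DESeq2 1.42.0 and limma-voom on the recovered reads, a replicate block, 1 sample left out and single batches. The labels give replicate 1 of both groups to batch 1 and replicate 2 to batch 2, which is where the pairing comes from, and within-group deviations correlated at 0.168 between samples that share a number (17632 genes, which are not independent) and at 0.314 over the 10289 genes averaging 200 or more. Lengths come from GENCODE 29 (17248 of 17632 tested genes), and 30820 of 30843 identifiers matched the reference names. Total reads of 18754356 to 20412283 a sample set the precision of low genes.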

Additional observations from a re-analysis of the deposited data

How the results depend on the processing

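*ITGB4* kept its direction in every alternative and passed in all but the fit with no filter on low values. That fit tests 30843 genes and called 0 of them, so the members called lower were 0 and the genes called higher and lower were 0 and 0 (2911 at an unadjusted p under 0.05, smallest adjusted p 0.357). The other 14 fits each called 1 member lower. Members called higher were 1 with DESeq2, 2 with the replicate block and 0 to 1 with 1 sample left out. The replicate block called 900 genes higher and 817 lower over all genes, and leaving out 1 sample gave 205 to 412 higher and 124 to 284 lower. The 412 higher came without RM- replicate 1, along with 278 lower, and the 284 lower without RM+ replicate 1. The members' median log2 fold change was 0.32 within batch 1, 0.034 within batch 2 and 0.0047 to 0.28 with 1 sample left out.

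Genes that were not called changed sign in some settings. *ITGA6* was at -0.021 without RM- replicate 1 (0.12 without RM- replicate 2) and -0.00026 within batch 2. *DST* was at -0.10 without RM- replicate 1 (0.31 without RM- replicate 2) and -0.19 within batch 2. *CD151* was at 0.0047 without RM- replicate 1 (-0.064 without RM- replicate 2) and 0.034 within batch 2. The cause was not tested. Over the other lists the replicate block called 11 genes higher and 5 lower, against 0 and 3 in the unblocked fit. The block leaves 1 residual degree of freedom and an infinite prior. Leaving out 1 sample gives a prior of at least 182 and assumes that the lone sample varies like the other group, so both lean on the spread of all genes together. No scaling moved the median of all genes by more than 0.0218 from 0. With 2 samples a group, no exact test of a single value can go below 0.333. Genes below the filter, such as *COL17A1*, could not be compared at this depth.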
